A study of Mus musculus with 9 samples.

Results

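Rpl3l and Rpl3 encode 2 forms of the same protein of the large ribosomal subunit, and their transcripts were examined on Affymetrix arrays of adult mouse hearts. The genes were to be read at the probe set with 1 gene symbol and the highest mean over all 9 arrays. Of the 2 genes only Rpl3l, among 19935 genes in all, had such a probe set. Rpl3 had 0: it appears on 7 probe sets, each of which lists other genes beside it, so that no value below is a reading of Rpl3 alone. Rpl3l was chosen because its value differed between the groups in these same arrays, and its levels are therefore given as a description with no test of that difference.

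The ribosomal protein L3 reaches with its extensions towards the peptidyl transferase centre, where the ribosome joins amino acids. Rpl3 is expressed in all tissues, whereas Rpl3l is known as the form of striated muscle, where it takes the place of Rpl3 in ribosomes of mature heart and skeletal muscle. Loss of Rpl3l in mice is known to be accompanied by a higher level of Rpl3.

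Tissue from the right ventricle together with the interventricular septum was taken from adult mice on a mixed background of C57BL/6. The 5 wild-type hearts are Ezh2f/f by their genotype field, although their titles name Ez f/wt. The 4 Ezh2-deficient hearts are Ezh2f/f;Mef2cAHF::Cre. Their Cre is expressed under a Mef2c enhancer of the anterior heart field, whose embryonic cells give rise to the right ventricle, septum and outflow tract, so that by this design cells of other origin keep Ezh2. The Cre transgene is in the Ezh2-deficient group only, and its effect and that of the lost Ezh2 cannot be told apart. Ezh2 is the methyltransferase of Polycomb repressive complex 2. Its probe set read 8.60 to 8.89 in wild-type and 8.74 to 8.98 in Ezh2-deficient hearts (log2 scale), with a difference of 0.15 (SE 0.07, limma adjusted p = 0.485), which does not check the genotype labels.

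All levels below are RMA values on the log2 scale, 1 per probe set and array, and differences are Ezh2-deficient minus wild type. Array medians lay between 7.19 and 7.25. Titles carry the letter e (2 hearts in each group) or x (3 wild-type and 2 Ezh2-deficient hearts), whose meaning the labels do not give. By Y-linked genes 1 wild-type and 2 Ezh2-deficient hearts came from females. Ezh2-deficient array 3 stood apart in markers of blood cells, with a list mean of 10.2 against 7.65 to 8.66 in every other heart. Of 5 listed blood markers 2 were measured, Alas2 and Slc4a1. Counts and values that this array turned or moved by over 1.5 times are given without it in the same paragraph or the next.

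The Rpl3l gene lies on chromosome 17 from 24727826 to 24736143 (RefSeq, GRCm38.p6), and Rpl3 on chromosome 15 from 80077781 to 80083406. The Rpl3l probe set carries accessions of 2 RefSeq transcripts and gives 1 value for both. The reference table of promoter windows, each running from 250 bases before to 50 bases after an annotated start, held 2 windows for Rpl3l, on the plus strand. They are printed because they are the annotated starts of the transcript whose level differed. The first is that of the gene's start, chr17:24727576-24727875, and the second lies within the gene, chr17:24732435-24732734. Capitals mark matches, on either strand, to the E-box CANNTG, the GATA motif AGATAA or the consensus of MEF2, a muscle transcription factor family.
Rpl3l first start: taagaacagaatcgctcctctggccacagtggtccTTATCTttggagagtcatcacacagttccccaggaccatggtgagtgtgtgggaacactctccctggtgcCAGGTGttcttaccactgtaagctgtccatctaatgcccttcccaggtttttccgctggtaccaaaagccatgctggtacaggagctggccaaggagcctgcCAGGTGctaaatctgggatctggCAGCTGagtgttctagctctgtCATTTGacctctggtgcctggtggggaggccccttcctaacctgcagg
Rpl3l second start: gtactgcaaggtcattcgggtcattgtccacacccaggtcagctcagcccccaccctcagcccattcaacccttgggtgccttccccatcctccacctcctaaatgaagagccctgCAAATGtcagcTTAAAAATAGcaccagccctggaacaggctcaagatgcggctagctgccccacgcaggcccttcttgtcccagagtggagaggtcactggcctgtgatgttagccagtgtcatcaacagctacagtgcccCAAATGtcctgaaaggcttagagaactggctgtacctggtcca

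The first window held 4 E-boxes and 1 GATA match, and the second held 2 E-boxes and 1 MEF2 match, with no overlap between matches. Of 32851 windows of the same length over all genes, 72.3% held an E-box, 11.2% the GATA motif and 3.19% the MEF2 consensus. The M-CAT motif GGAATG, held by 14.7% of windows, and the CArG consensus of serum response factor, held by 1.63%, were in neither. Both windows are poor in CG dinucleotides, the feature of the CpG islands at which Polycomb complexes are known to bind. The first held 2 and the second 3, against a median of 7, and 23.3% and 31.4% of windows held as few or fewer. The arrays measure neither binding nor histone marks, and these matches are a description of letters only.

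Rpl3l was lower in all 4 Ezh2-deficient hearts than in any wild-type heart. It read 10.42, 10.80, 10.53, 10.69 and 10.70 in wild-type hearts 1 to 5. It read 9.74, 9.39, 9.55 and 10.04 in Ezh2-deficient hearts 1 to 4. The lowest wild-type heart and the highest Ezh2-deficient heart, number 4, lay closest, and the groups did not overlap. Over all probe sets 1.91% had every Ezh2-deficient heart below every wild-type heart, and since Rpl3l was chosen on this contrast nothing is read from its being among them. The means were 10.63 ± 0.15 (SD, n = 5) and 9.68 ± 0.28 (SD, n = 4). The difference was -0.95 (SE 0.13), which puts Ezh2-deficient hearts at 0.518 of the wild-type level. Among the 19935 genes it was number 6 from the lowest difference.

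**Figure D1:**
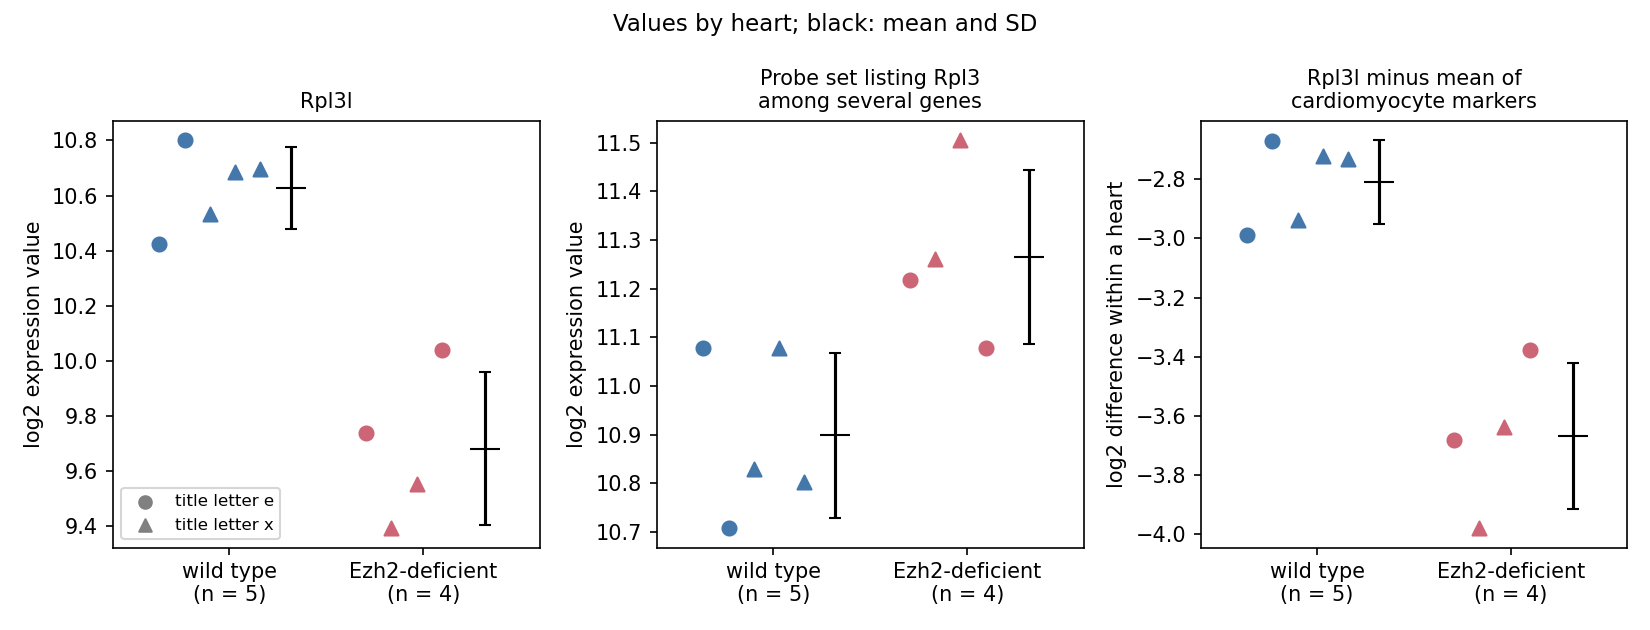
Log2 expression value of Rpl3l (left), of the brightest probe set that lists Rpl3 among several genes (middle), and of Rpl3l minus the mean of 12 cardiomyocyte markers in the same heart (right). Each point is a heart, circles have title letter e and triangles letter x, and black bars give the mean and SD; Rpl3l separates the groups, while the middle panel has hearts of both groups at 11.08.

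The SD was larger among Ezh2-deficient than among wild-type hearts, which was not tested. Of the Ezh2-deficient hearts, both with title letter e, 1 and 4, read higher than both with letter x, 2 and 3, whereas the wild-type hearts of letter e were the lowest and the highest of their group. The difference was -0.72 among the hearts of letter e and -1.17 among those of letter x. The interaction of genotype and letter was -0.44 (SE 0.20, 95% interval -0.89 to 0.01) and did not pass in limma over all probe sets (adjusted p = 0.732, unadjusted p = 0.0541). In that fit 0 of 28815 probe sets passed (0%), with 1764 at an unadjusted p under 0.05. The hearts of females among the Ezh2-deficient ones, 1 and 3, lay between those of males, and an effect of sex was not tested. Leaving out Ezh2-deficient heart 4 made the difference -1.07, leaving out heart 2 made it -0.85, and without heart 3 it was -0.91.

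Rpl3l is a transcript of muscle cells, and in RNA from whole tissue fewer cardiomyocytes and less RNA per cardiomyocyte cannot be told apart. Of 12 cardiomyocyte markers 11 had a lower mean, with a median difference of -0.07, beside 10296 of all 19935 genes with a lower mean. By limma 0 passed, against 0.0347% of all probe sets. At an unadjusted p under 0.05, where 5.45% of all probe sets were lower, lay 1 marker, lower in Ezh2-deficient hearts. That gene was Tnni3, the cardiac troponin I, which differed by -0.17 (SE 0.04, adjusted p = 0.239). Myl2, the ventricular myosin light chain, differed by -0.06 (SE 0.04, adjusted p = 0.617). Ttn, encoding the sarcomere spring titin, differed by -0.14 (SE 0.15, adjusted p = 0.761), a value that turned to 0.04 when Ezh2-deficient heart 3 was left out. The mean over the 12 markers lay between 13.41 and 13.47 in wild-type hearts and between 13.19 and 13.42 in Ezh2-deficient hearts, with array 3 the lowest. Taken against this mean in the same heart, Rpl3l was at -2.99 to -2.67 in wild-type hearts and -3.98 to -3.38 in Ezh2-deficient hearts. The groups did not overlap on this scale, and the difference was -0.86. Since Rpl3l was chosen on this contrast, nothing is read from that separation, and the share of cardiomyocytes was not tested. The mean of the cardiomyocyte markers themselves differed by -0.09. With Ezh2-deficient heart 3 left out the marker mean differed by -0.04, with 5 of 12 markers higher and a median of -0.03. Rpl3l against this mean then differed by -0.87.

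Other cells were also followed. All 8 fibroblast markers had a higher mean (median difference 0.69), beside 9639 of all 19935 genes. Their list mean was 10.16 to 10.84 in wild-type and 10.97 to 11.27 in Ezh2-deficient hearts, with no overlap. Of single probe sets 1.79% had every Ezh2-deficient heart above every wild-type heart, and the share among list means was not counted. Postn, which encodes the matrix protein periostin, differed by 1.37 (SE 0.19, limma adjusted p = 0.0554; named after its value was seen). All 6 macrophage markers (median 0.19) and all 6 endothelial markers (0.16) had a higher mean, but these lists overlapped between the groups. The macrophage list mean was 8.22 to 8.66 in wild-type and 8.59 to 8.88 in Ezh2-deficient hearts. The endothelial list mean was 10.11 to 10.75 in wild-type hearts, a range that held all 4 Ezh2-deficient hearts (10.58 to 10.72). Of these markers 0 passed by limma, against 0.0347% of all probe sets. At an unadjusted p under 0.05, where 5.23% of all probe sets were higher, lay 5 of 8 fibroblast, 1 of 6 endothelial and 0 of 6 macrophage markers, each higher. Their part in the Rpl3l result was not tested. Fast skeletal muscle, the other tissue rich in Rpl3l, has its own markers, such as the myosin genes Myh1 and Myh4. The mean of 9 such markers was 6.58 to 6.69 in wild-type and 6.62 to 6.71 in Ezh2-deficient hearts, below the array medians of 7.19 to 7.25. Atrial markers varied far more within groups, from 6.74 to 9.20 in wild-type and from 7.43 to 9.51 in Ezh2-deficient hearts. The heart with the lowest atrial value, wild type 3, had an Rpl3l value of 10.53, inside the range of its group.

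**Figure D2:**
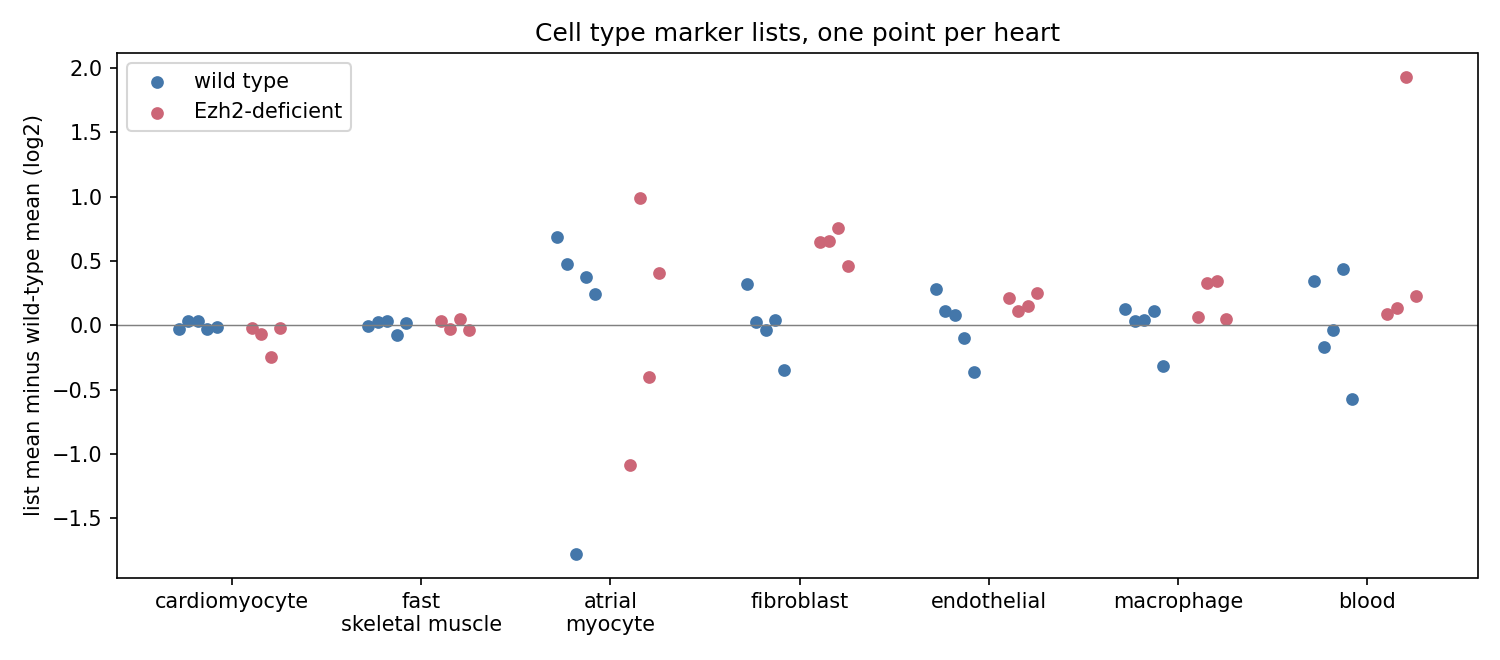
Mean of each cell type marker list minus its wild-type mean, on the log2 scale, with 1 point per heart in wild-type (blue) and Ezh2-deficient (red) hearts. Fast skeletal muscle lists stay near 0, as do cardiomyocyte lists except in Ezh2-deficient heart 3 (list mean 13.19 against a wild-type mean of 13.44). The fibroblast list mean is higher in all Ezh2-deficient hearts than in any wild-type heart, a pattern that 1.79% of single probe sets have. The blood markers of Ezh2-deficient heart 3 stand apart.

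The 7 probe sets that list Rpl3 also list a gene model, Gm5879, and in 2 of them the pseudogene Rpl3-ps1 with Ralgps2 and the neighbouring gene Syngr1. Their values ran together: the lowest Pearson's r between any pair over the 9 arrays was 0.974, and 2 of them have identical values. They are thus not independent readings. Which of the listed transcripts they report was not tested. The brightest read 11.08, 10.71, 10.83, 11.08 and 10.80 in wild-type hearts 1 to 5 and 11.22, 11.26, 11.51 and 11.08 in Ezh2-deficient hearts 1 to 4. Of the 4 Ezh2-deficient hearts 3 were above every wild-type heart, and heart 4 was level with wild-type hearts 1 and 4. The groups therefore met, and of the 7 probe sets 0 separated them, against 1.79% of all probe sets with every Ezh2-deficient heart higher. The means were 10.90 ± 0.17 (SD, n = 5) and 11.27 ± 0.18 (SD, n = 4), a difference of 0.37 (SE 0.10). Over the 7 probe sets the differences ran from 0.34 to 0.38. Without Ezh2-deficient heart 3, the highest, the difference of the brightest was 0.29.

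Set against each other, the Rpl3l value minus that of the brightest shared probe set was -0.66 to 0.09 in wild-type hearts and -1.95 to -1.04 in Ezh2-deficient hearts, a difference of -1.31. The Ezh2-deficient heart with the smallest shift on both was number 4. Wild-type heart 1, which had the lowest Rpl3l of its group, shared the highest value of the other probe set with wild-type heart 4. Other hearts differed from this pattern. Wild-type heart 4 lay above its group mean on Rpl3l as well (by 0.06), and wild-type heart 3 lay below it on both. Ezh2-deficient heart 2, the lowest for Rpl3l, deviated from its group mean by only -0.004 on the shared probe set. Over all 9 hearts, deviations from the group mean of Rpl3l and of this probe set were inversely related (Pearson's r = -0.61, Spearman's rho = -0.74). Pearson's r was -0.67 without the 2 hearts whose Rpl3l deviations lay farthest from the median deviation, Ezh2-deficient hearts 2 and 4. Over the 7 probe sets r was -0.61 to -0.51. The hearts form 2 groups of under 6, so this is a description, chosen after the values were seen, with no test.

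Other ribosomal proteins give the scale of what else moved in the ribosome. Of 47 large subunit genes 33 had a probe set of their own, 27 with a higher and 6 with a lower mean, and a median difference of 0.03. Of 32 small subunit genes 22 were measured, 18 with a higher mean, and the median was 0.06. Over all 19935 genes the median was -0.003, with 9639 higher. By limma 0 of the 55 ribosomal protein genes passed, against 0.0347% of all probe sets, and 1 was lower at an unadjusted p under 0.05. At that unadjusted p 5.23% of all probe sets were higher and 5.45% lower. The gene was Rpl30, which differed by -0.22 (SE 0.09, adjusted p = 0.443). Rpl28 differed by 0.09 (SE 0.05, adjusted p = 0.559) and Rpl34 by 0.14 (SE 0.12, adjusted p = 0.709), both of the large subunit. In the small subunit, Rps15 differed by 0.13 (SE 0.09, adjusted p = 0.661), Rps28 by 0.14 (SE 0.11, adjusted p = 0.69) and Rps12 by 0.18 (SE 0.17, adjusted p = 0.739). Rpl28, Rps15, Rps28 and Rps12 have 5, 3, 7 and 13 probe sets with 1 symbol, and only the brightest of each is given. The differences of Rpl34, Rps15, Rps28 and Rps12 were 0.007, 0.05, 0.06 and 0.04 when Ezh2-deficient heart 3 was left out. The differences of all 55 lay between -0.22 and 0.18, or between -0.18 and 0.25 without heart 3. That of Rpl3l was outside their range, from which nothing is read, since Rpl3l was chosen on this contrast.

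The list means of both subunits were highest in wild-type heart 4 and Ezh2-deficient heart 3, at 11.39 and 11.40 for the large and 11.46 and 11.52 for the small subunit. Without Ezh2-deficient heart 3 the median differences turned to -0.03 and -0.04, and 5 of 33 large and 5 of 22 small subunit genes had a higher mean. The direction of either list thus rested on 1 heart. The shared probe set that lists Rpl3, taken against the large subunit mean of the same heart, was -0.37 to -0.05 in wild-type and -0.03 to 0.12 in Ezh2-deficient hearts. Its difference on this scale was 0.34, or 0.33 without heart 3. The groups did not overlap on it, but only narrowly, at -0.05 against -0.03, whereas the probe set by itself did not separate them. This scale was not planned, and the share of all probe sets that separate on it was not counted, so nothing is read from the separation.

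**Figure D3:**
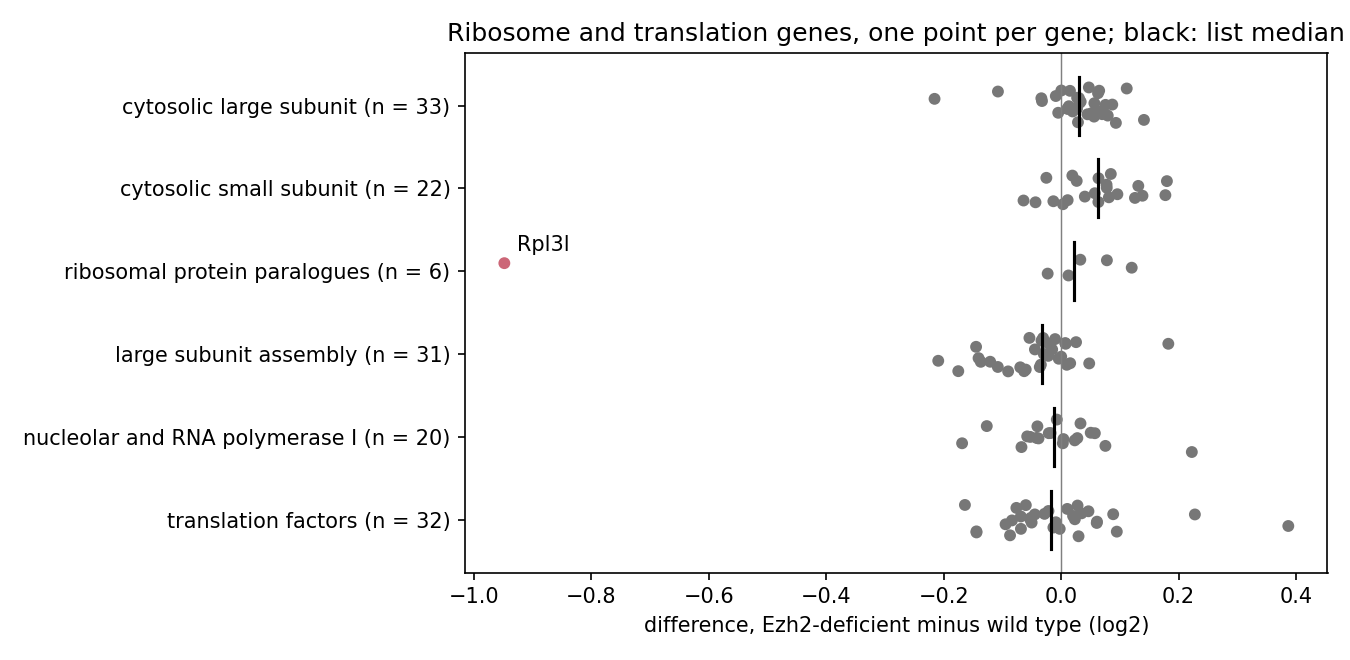
Difference between Ezh2-deficient and wild-type hearts on the log2 scale, with 1 grey point per gene for lists of ribosomal proteins, their paralogues, assembly factors, nucleolar genes and translation factors, and a black line at each list's median. Rpl3l, in red at -0.95, was chosen on this contrast and lies apart from the genes of every list shown.

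Mammals have few ribosomal protein paralogues, and 6 of 8 listed here were measured, Rpl3l included. Rpl10l and Rpl39l, known from testis, differed by 0.12 (SE 0.10, limma adjusted p = 0.685) and 0.01 (SE 0.07, adjusted p = 0.968). Rps27l, a target of p53, differed by 0.08 (SE 0.17, adjusted p = 0.904), Rpl7l1 by -0.02 (SE 0.04, adjusted p = 0.879) and Rps4l by 0.03 (SE 0.07, adjusted p = 0.907). The paralogues other than Rpl3l thus differed by at most 0.12. Rpl10l and Rpl39l had wild-type means of 6.57 and 4.90, below the array medians of 7.19 to 7.25, and whether they are expressed here was not tested. Rpl10l differed by 0.02 and Rps27l by -0.07 with Ezh2-deficient heart 3 left out.

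Upstream of the ribosome, genes of its assembly did not pass either. Grwd1 encodes the chaperone that carries newly made L3 protein to the nucleolus, and it differed by 0.02 (SE 0.04, limma adjusted p = 0.91). Over all probe sets 0.0347% passed by limma, and 5.45% were lower and 5.23% higher at an unadjusted p under 0.05. Of 31 large subunit assembly genes 23 had a lower mean (median -0.03), as did 10296 of all 19935 genes. Of the 31, 0 passed, and 2 were lower and 1 higher at that unadjusted p. These were Las1l (-0.21, SE 0.07, adjusted p = 0.342), which takes part in processing the spacer of the ribosomal RNA precursor, the GTPase gene Gnl2 (-0.14, SE 0.06, adjusted p = 0.414), and Eif6 (0.18, SE 0.07, adjusted p = 0.368), which keeps new large subunits from joining small ones. Of 20 nucleolar and RNA polymerase I genes 0 passed and 1 was lower at an unadjusted p under 0.05; the median was -0.01, or 0.01 without Ezh2-deficient heart 3. The lower gene was Nop56 (-0.17, SE 0.07, adjusted p = 0.461), a core protein of the particles that methylate ribosomal RNA. Dkc1, encoding the pseudouridine synthase dyskerin, differed by -0.13 (SE 0.08, adjusted p = 0.592). Myc, a transcription factor that drives ribosome synthesis, differed by 0.22 (SE 0.13, adjusted p = 0.573).

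Among 32 translation factors 0 passed by limma, against 0.0347% of all probe sets, and the median was -0.02. At an unadjusted p under 0.05 lay 2 higher and 1 lower, where 5.23% of all probe sets were higher and 5.45% lower. Eef1a1, which brings aminoacyl-tRNA to the ribosome, read 13.30 to 13.53 in wild-type and 13.52 to 13.77 in Ezh2-deficient hearts, and its difference of 0.23 (SE 0.07) had an adjusted p = 0.271. Pabpc1, the poly(A)-binding protein, differed by 0.39 (SE 0.15, adjusted p = 0.389), with its highest value, 12.68, in Ezh2-deficient heart 3, and by 0.25 without that heart. Eif4ebp1, an inhibitor of cap-dependent initiation, differed by -0.14 (SE 0.06, adjusted p = 0.401).

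Striated muscle replaces several general proteins by forms of its own, as it does L3. Of the muscle forms of 12 other such pairs 11 had a lower mean, beside 10296 of all 19935 genes. Their median difference was -0.08, with a range from -0.18 to 0.05. Of 11 measured general forms 8 had a higher mean, beside 9639 of all 19935 genes. Their median was 0.09, with a range from -0.21 to 0.26. By limma 0 of these genes passed, against 0.0347% of all probe sets. At an unadjusted p under 0.05 lay 2 muscle forms, both lower, and 4 general forms, 2 higher and 2 lower, where 5.23% of all probe sets were higher and 5.45% lower. In 7 of the 11 pairs with both forms measured the muscle form had a lower and the general form a higher mean. For the elongation factor pair, Eef1a2 of muscle differed by -0.04 (SE 0.07, adjusted p = 0.861) beside 0.23 for Eef1a1. For creatine kinase, Ckm differed by -0.06 (SE 0.06, adjusted p = 0.731) and Ckb by 0.26 (SE 0.10, adjusted p = 0.396). Pfkm and Pfkl, of phosphofructokinase, differed by -0.08 and 0.12, and Ampd1 and Ampd2, of AMP deaminase, by -0.09 and 0.09. Each had an SE of 0.06 to 0.10 (adjusted p 0.621 to 0.72). Ampd1 had a wild-type mean of 6.10, below the array medians of 7.19 to 7.25, and whether it is expressed here was not tested. Without Ezh2-deficient heart 3 the muscle forms had a median of -0.02, with 3 of 12 higher, and Eef1a2, Ckm and Pfkm differed by -0.01, -0.02 and -0.01 and Pfkl by 0.21. The difference of Rpl3l lay outside the range of all the other muscle forms, with and without that heart. Since Rpl3l was chosen on this contrast, nothing is read from its place outside that range.

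**Figure D4:**
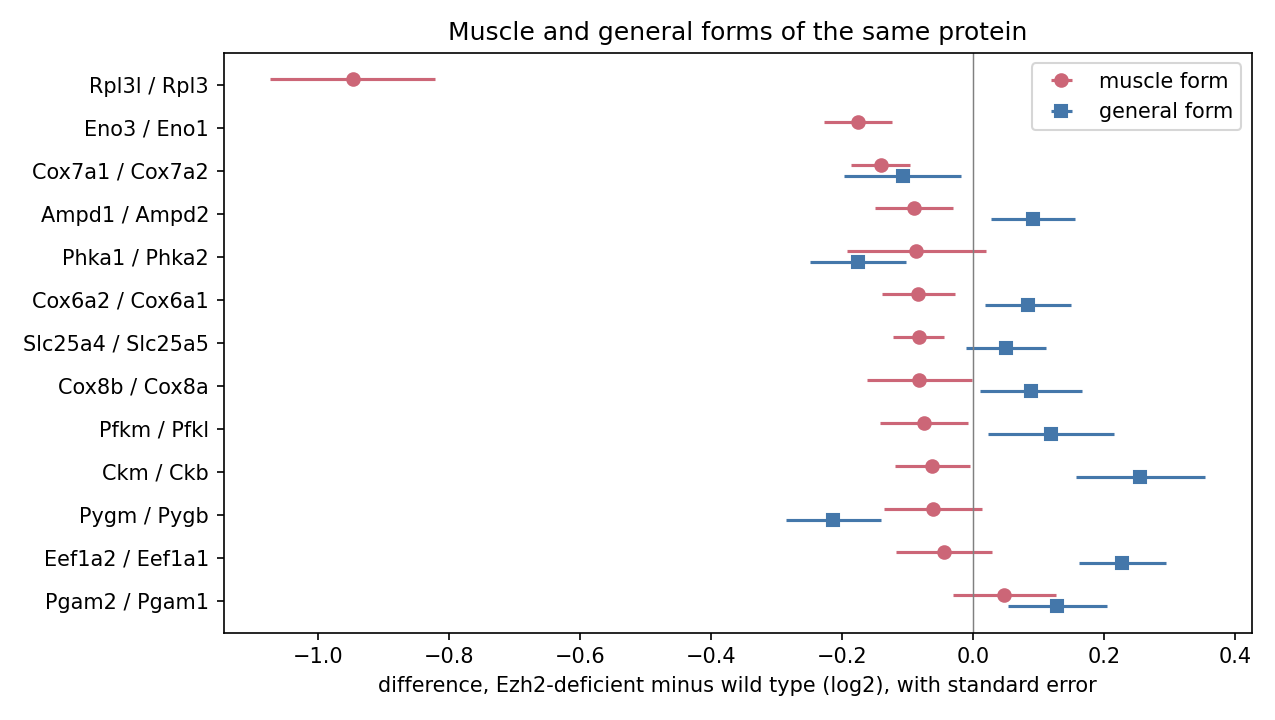
Difference between Ezh2-deficient and wild-type hearts on the log2 scale, with its standard error, for the muscle form (red circles) and the general form (blue squares) of each protein. Rpl3 and Eno1 have no probe set of their own and no square. Rpl3l, chosen on this contrast, is the lowest point, at -0.95, and the next muscle form, Eno3, is at -0.18.

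Genes beside Rpl3l on chromosome 17 were read at their own probe sets, Rps2 at the brightest of 3. On one side lie Ndufb10, a subunit of respiratory complex I, Rps2, a small subunit ribosomal protein, and Rnf151. They differed by -0.19 (SE 0.07, limma adjusted p = 0.356), -0.03 (SE 0.04, adjusted p = 0.864) and -0.09 (SE 0.05, adjusted p = 0.6). On the other side lie Msrb1, a methionine sulfoxide reductase, Hs3st6 and Meiob. These differed by -0.003 (SE 0.05, adjusted p = 0.993), 0.07 (SE 0.08, adjusted p = 0.77) and -0.08 (SE 0.06, adjusted p = 0.693). Rnf151, Hs3st6 and Meiob had wild-type means of 6.95, 6.95 and 3.99, below the array medians of 7.19 to 7.25. Whether they are expressed here was not tested. Ndufb10 read 10.53 to 10.60 in wild-type and 10.15 to 10.49 in Ezh2-deficient hearts, and its groups did not overlap, as at 1.91% of all probe sets in this direction. Without Ezh2-deficient heart 3, its lowest, Ndufb10 differed by -0.11, Rps2 by -0.05, Msrb1 by -0.005 and Meiob by -0.05. Around Rpl3 on chromosome 15, the measured neighbours Apobec3, Cbx7, Pdgfb, Syngr1, Tab1 and Mgat3 differed by -0.13 to 0.29 (adjusted p 0.496 to 0.966). Syngr1, which is also listed on 2 of the shared probe sets, differed by 0.10 (SE 0.07, adjusted p = 0.621) at its own. Cbx7, a subunit of Polycomb repressive complex 1, differed by -0.01 (SE 0.08, adjusted p = 0.966). With heart 3 left out Apobec3 differed by -0.07, Cbx7 by -0.06 and Mgat3 by -0.03. Mgat3 had a wild-type mean of 6.19, also below the array medians.

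The genes most like Rpl3l were ranked by Pearson's r of log2 values over the 9 hearts. The measure rewards any gene that separates the groups, and is given with no test. The highest were Asb15 (r = 0.981), Pcp4l1 (0.967), Dhrs11 (0.967), 2810004N23Rik (0.967), Arhgap10 (0.965) and C730029A08Rik (0.965). Asb15, a gene of muscle that encodes an ankyrin repeat and SOCS box protein, read 9.40 to 9.67 in wild-type and 9.06 to 9.37 in Ezh2-deficient hearts. Its lowest wild-type heart was number 1 and its highest Ezh2-deficient heart number 4, as for Rpl3l. It was also first by deviations from the group means (r = 0.949 over 9 hearts), before S100a14 (0.937) and Olfr1366 (0.934). C730029A08Rik, S100a14 and Olfr1366 had wild-type means of 5.98, 5.99 and 6.19, below the array medians of 7.19 to 7.25. Over so many genes and only 9 hearts, high values of r can arise by chance. The most opposite patterns were those of Unc13b (r = -0.98), which acts in vesicle release, Fxyd6 (-0.966), a regulator of the sodium pump, and Prps2 (-0.966), a phosphoribosyl pyrophosphate synthetase. Prps2 read 8.07 to 8.26 in wild-type and 8.71 to 9.17 in Ezh2-deficient hearts, with hearts 2 and 3, the lowest for Rpl3l, the highest.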

How the data were processed

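RNA of 9 hearts was hybridised to 1 array each. The deposited table holds log2 expression values made by the authors with RMA in Affymetrix Power Tools, per the submitters' processing notes; of these, no version or setting is known here. The log2 scale was read from the range of the values, 2.18 to 15.0. The table has no detection call, and the number of arrays limits the precision. Of 28815 probe sets 21780 had 1 gene symbol in the platform annotation, 1605 several and 5430 none; 21689 symbols were checked by gene identifier in RefSeq (GRCm38.p6). RMA gives no probe positions, and cross-hybridisation between Rpl3l, Rpl3, other ribosomal protein genes and their many pseudogenes was not tested.

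Groups came from the description label. Hearts were numbered in sample order, and the labels speak of 5 and 4 mice. The fit was limma 3.58.1 (R 4.3.3), lmFit and eBayes on genotype alone, two-sided, with Benjamini-Hochberg adjustment over all probe sets and a threshold of 0.05. It was tested on simulated data. Means and likeness used Python 3.11.15. The genes and lists were chosen with earlier results of these data known. Named genes were the paralogues, 3 genes with the smallest p per list, Grwd1, Eef1a1, Eef1a2 and Myc, the 4 most unequal pairs, 3 neighbours on either side, and the genes most like Rpl3l; Ezh2 and genes that explain a count were added. Markers of Schwann cells were listed but not measured, and those of adipocytes and smooth muscle are reported in the closing part. The planned difference of Rpl3 was replaced by that of the shared probe sets. Alternatives were further normalization, centring, arrays left out, title letter and sex.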

Additional observations from a re-analysis of the deposited data

Results flagged for a closer look

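Values of 1 heart far from the rest of its group were looked for with Dixon's test in 36 groups of 4 or 5 hearts, and 5 were found; chance alone gives about 1 in 20. The Rpl3l values and those of the shared probe set were not among them. The cytosolic large subunit mean was 11.403 in Ezh2-deficient heart 3, above 11.11 to 11.14 in the other hearts of its group, and the blood marker mean of that heart was 10.154. The atrial marker mean was 6.743 in wild-type heart 3, against 8.76 to 9.20 in the rest. In wild-type heart 5 the smooth muscle and pericyte mean was 9.351 and the macrophage mean 8.223, both low.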

How the results depend on the processing

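The difference of Rpl3l was negative under every alternative run: -0.94 after a further quantile normalization, -0.96 with arrays centred on their medians, -0.97 with the title letter as a block, -0.95 with Y-linked genes as a covariate, -0.91 without wild-type arrays 4 and 5, and -1.07 to -0.85 when 1 array was left out. It moved by more than the spread between hearts among hearts of letter e (-0.72) and of letter x (-1.17). The interaction of Rpl3l with the letter was -0.63 to -0.25 when 1 array was left out. The difference of the brightest probe set that lists Rpl3, an analysis added after seeing the data, was 0.29 to 0.43 when 1 array was left out, and that of Rpl3l minus it -1.50 to -1.19. Both lay within the spread between hearts in all other alternatives. The median difference was -0.03 to 0.10 for the large and -0.04 to 0.13 for the small subunit when 1 array was left out, and with Y-linked genes as a covariate it turned to -0.013 and -0.015; the cause was not tested. Without Ezh2-deficient array 3, in which both list means were high, it was -0.029 and -0.043. Of their members 0 passed in any of these fits. The count of probe sets past the threshold, 10 with all arrays, was 3 to 15 when 1 array was left out, 5 without wild-type arrays 4 and 5, 17 with centring, 17 with the title letter as a block, 17 with only brighter probe sets, 3 with Y-linked genes as a covariate and 37 with array weights. Of 1708 values of genes named in the text or lists 3 moved by more than the spread between hearts and 7 passed the threshold only in the alternative. The mean over several probe sets could not be taken for Rpl3l, which has 1, and was not run for genes with more. No paired analysis was possible because the labels give the groups no shared replicate numbers.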

Other observations

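The 2 measured adipocyte markers had a list mean of 5.92 to 6.20 in wild-type hearts and 5.78 to 7.10 in Ezh2-deficient hearts. Ezh2-deficient heart 2, the lowest for Rpl3l, was the highest. These list means lay below the array medians of 7.19 to 7.25. All 6 smooth muscle and pericyte markers had a higher mean in Ezh2-deficient hearts, beside 9639 of all 19935 genes. Their median difference was 0.16. Without Ezh2-deficient heart 3 it was 0.25, with 5 of 6 higher. By limma 0 passed, against 0.0347% of all probe sets. At an unadjusted p under 0.05, where 5.23% of all probe sets were higher, there were also 0.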
